A study of Mus musculus with 6 samples.

Results

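The 30 genes described here are type I interferon-stimulated genes with an antiviral role, together with the STAT and IRF transcription factors that control them. They were taken by symbol from a table of 24421 genes. All 30 had a row, and all 30 passed the filter on low counts, among 13803 genes that did. Their transcripts were measured by sequencing of polyadenylated RNA in marrow cells of C57BL/6 mice that carry the genotype Dek -/-. Dek encodes a nuclear chromatin protein that blood cells can also secrete. The cells came from femurs, and mature cells had been removed by magnetic sorting against lineage markers. There were 3 libraries of DEK-treated cells and 3 of vehicle-treated cells, numbered 1 to 3 within each group, and all 6 share strain, genotype and tissue. The labels state no age, no dose and no duration of treatment, and they do not say whether equal numbers share an animal. The p-values therefore measure the spread between these libraries, which may be technical.

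Interferons are secreted when cells detect foreign or misplaced nucleic acid. Type I interferons bind the receptor chains Ifnar1 and Ifnar2, and the kinases Jak1 and Tyk2 then activate STAT transcription factors. With IRF9, STAT2 takes part in a complex that binds the interferon-stimulated response element (ISRE) in the promoters of target genes, whereas interferon gamma acts mainly through a shorter element (GAS). In marrow, interferons are known to bring dormant stem cells into cycle, and the products of the target genes recognise viral RNA, degrade it or block the assembly and release of virus.

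The promoters of 6 of these genes are shown because they hold the element through which the family is known to be controlled. Each is the window from 250 bases before to 50 bases after the RefSeq transcription start (GRCm38.p6, the assembly of mm10), read 5′ to 3′ on the strand of the gene. The windows are chr4:156200769-156201068 for Isg15 (minus strand), chr19:34640639-34640938 for Ifit1 and chr19:34583279-34583578 for Ifit3 (both plus strand), chr5:92348840-92349139 for Cxcl10 (minus strand), chr10:128270248-128270547 for Stat2 (plus strand) and chr8:71537423-71537722 for Bst2 (minus strand). Capitals mark the ISRE core (GAAA, any 2 bases, then GAAA, on either strand) and, in Bst2, an overlapping GAS (TTC, any 3 bases, then GAA).
Isg15: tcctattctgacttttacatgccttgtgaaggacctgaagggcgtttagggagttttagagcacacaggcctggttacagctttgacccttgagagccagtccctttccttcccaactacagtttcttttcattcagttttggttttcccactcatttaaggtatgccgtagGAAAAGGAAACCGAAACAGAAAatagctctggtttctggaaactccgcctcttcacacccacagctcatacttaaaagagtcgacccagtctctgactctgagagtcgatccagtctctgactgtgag
Ifit1: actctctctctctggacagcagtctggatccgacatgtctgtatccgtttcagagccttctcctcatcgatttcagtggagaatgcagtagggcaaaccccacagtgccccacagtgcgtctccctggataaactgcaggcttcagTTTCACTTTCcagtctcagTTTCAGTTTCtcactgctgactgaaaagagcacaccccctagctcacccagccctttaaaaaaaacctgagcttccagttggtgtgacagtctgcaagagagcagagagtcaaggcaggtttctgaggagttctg
Ifit3: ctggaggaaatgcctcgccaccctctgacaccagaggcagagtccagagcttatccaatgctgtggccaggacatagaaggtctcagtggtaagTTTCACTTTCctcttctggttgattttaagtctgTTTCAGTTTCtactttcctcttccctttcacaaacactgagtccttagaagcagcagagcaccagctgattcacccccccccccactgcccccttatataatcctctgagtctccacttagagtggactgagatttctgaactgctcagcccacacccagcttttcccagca
Cxcl10: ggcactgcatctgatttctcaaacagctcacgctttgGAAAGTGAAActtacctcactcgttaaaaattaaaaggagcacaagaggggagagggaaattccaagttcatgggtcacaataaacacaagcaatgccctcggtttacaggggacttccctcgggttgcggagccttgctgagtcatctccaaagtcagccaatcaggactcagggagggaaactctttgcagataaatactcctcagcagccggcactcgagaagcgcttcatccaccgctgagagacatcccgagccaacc
Stat2: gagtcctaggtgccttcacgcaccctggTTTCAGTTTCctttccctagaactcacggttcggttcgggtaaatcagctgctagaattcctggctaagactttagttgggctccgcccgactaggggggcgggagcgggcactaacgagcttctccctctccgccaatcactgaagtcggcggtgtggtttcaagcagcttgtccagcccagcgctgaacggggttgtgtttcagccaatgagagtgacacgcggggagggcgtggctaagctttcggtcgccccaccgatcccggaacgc
Bst2: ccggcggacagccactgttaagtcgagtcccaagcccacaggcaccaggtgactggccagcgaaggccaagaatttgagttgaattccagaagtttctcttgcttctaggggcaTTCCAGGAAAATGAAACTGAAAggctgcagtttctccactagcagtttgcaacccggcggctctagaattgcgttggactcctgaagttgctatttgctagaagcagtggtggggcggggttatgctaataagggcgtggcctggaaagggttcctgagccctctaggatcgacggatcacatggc

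In the Isg15 promoter 3 overlapping ISRE cores began 78, 72 and 66 bases before the start. Ifit1 had 2 on the opposite strand, 104 and 85 bases before the start, and Ifit3 had 2, at 156 and 122 bases. Bst2 had 2 overlapping cores, at 130 and 124 bases. Windows were given for 23 of the 30 genes, and 12 of the 23 held an ISRE core (52.2%), against 3.99% of 27025 genes with a window. The GAS pattern, which reads the same on both strands, was in 5 of the 23 (21.7%), against 9.55% of all genes. Irf1 held a GAS 90 bases before its start and no ISRE core. Genes with several windows counted once if any window matched. In a second annotation (GENCODE), a transcript of the gene held the first bases after the start for 18 of 29 windows. Of the windows shown, those of Ifit3, Stat2 and Bst2 lacked this, so their distances to the start are uncertain. A match describes the letters only.

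The libraries with replicate number 3 differed from the other 4 in both groups. The fixed neutrophil markers (11 of 12 listed had a row) took 5.84% of counts in DEK replicate 3 and 6.55% in vehicle replicate 3, against 0.870% and 0.648% in DEK replicates 1 and 2 and 0.708% and 0.684% in vehicle replicates 1 and 2. The stem and progenitor markers that the depletion should enrich were present in every library, at 0.632 to 1.09% of counts with DEK and 0.844 to 1.007% with vehicle. Most of these counts came from the granule protein genes Mpo, Elane, Prtn3 and Ctsg. Kit, Cd34, Gata2, Meis1, Hlf and Mpo of this list were each lowest in number 3 of both groups. Myb, Elane, Prtn3 and Ctsg were lowest in number 3 with DEK only. Cd34 stood at 246, 169 and 95.3 CPM in DEK replicates 1 to 3, against 236, 238 and 89.8 CPM in vehicle replicates 1 to 3. For the summed shares of 10 cell type lists, an exact two-sided permutation test without pairing gave p = 0.2 to 1 (adjusted p = 1 for each), but with 3 against 3 it cannot give less than 0.1. Within numbers 1, 2 and 3, the monocyte share was higher with DEK by 0.43, 0.27 and 0.06 on the log2 scale. The macrophage share had log2 differences of -0.09, -0.27 and -0.42, and the megakaryocyte share of -0.19, -0.07 and -0.20. Among single markers, edgeR with the replicate block called the monocyte genes Cx3cr1 (adjusted p = 0.00827) and Ly6c2 (adjusted p = 0.0376) and the neutrophil gene Lcn2 (adjusted p = 0.0206) higher with DEK. It called the macrophage genes C1qb (adjusted p = 0.0107), C1qc (adjusted p = 0.0339) and Mertk (adjusted p = 0.0133) lower with DEK, each at most 8.17 CPM in a DEK library and 17.1 CPM in a vehicle library. Without the block none of these 6 was called (adjusted p = 0.99994 for each). The block called 1.28% of all genes. Other markers of the same lists had blocked log2 fold changes in the other direction. These were Ccr2 (-0.12) and F13a1 (-0.01) for monocytes and Cd163 (0.13) for macrophages. For neutrophils they were S100a8 (-0.03), S100a9 (-0.10), Ngp (-0.01) and Retnlg (-0.21). The part of these cell types in the levels of the interferon-stimulated genes was not tested. Hba-a1 and Hbb-bt of the erythroid list were at 0 in all 6 libraries. The ribosomal transcript Rn45s took 4.89% of counts in vehicle replicate 1, against 0.159 to 0.331% in the DEK libraries and 0.273 and 0.297% in the other vehicle libraries. Total counts ran from 42496076 to 49128378 with DEK and from 34875736 to 48867857 with vehicle. Dek had counts of 781, 869 and 712 in DEK replicates 1 to 3 and 863, 672 and 733 in vehicle replicates 1 to 3, and a count over the whole gene does not check which part the knockout removes.

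The interferon-stimulated genes were highest in a single library, DEK replicate 3. Their summed level was 1091, 1431 and 6492 CPM (counts scaled to library size by TMM) in DEK replicates 1, 2 and 3, against 1245, 1145 and 2172 CPM in vehicle replicates 1, 2 and 3. The mean was 3005 ± 3025 CPM with DEK and 1521 ± 566 CPM with vehicle (SD, n = 3 each), so the groups overlapped and the SD with DEK was as large as the mean. DEK replicate 3 was the highest of the 6 libraries for 30 of 30 genes, as it was for 21.7% of all genes tested. Vehicle replicate 3 was second for 24 of the 30, and it was the highest vehicle library for 26, against 43.2% of all genes. In bulk RNA, more cells of a type and more RNA per cell cannot be told apart.

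**Figure D1:**
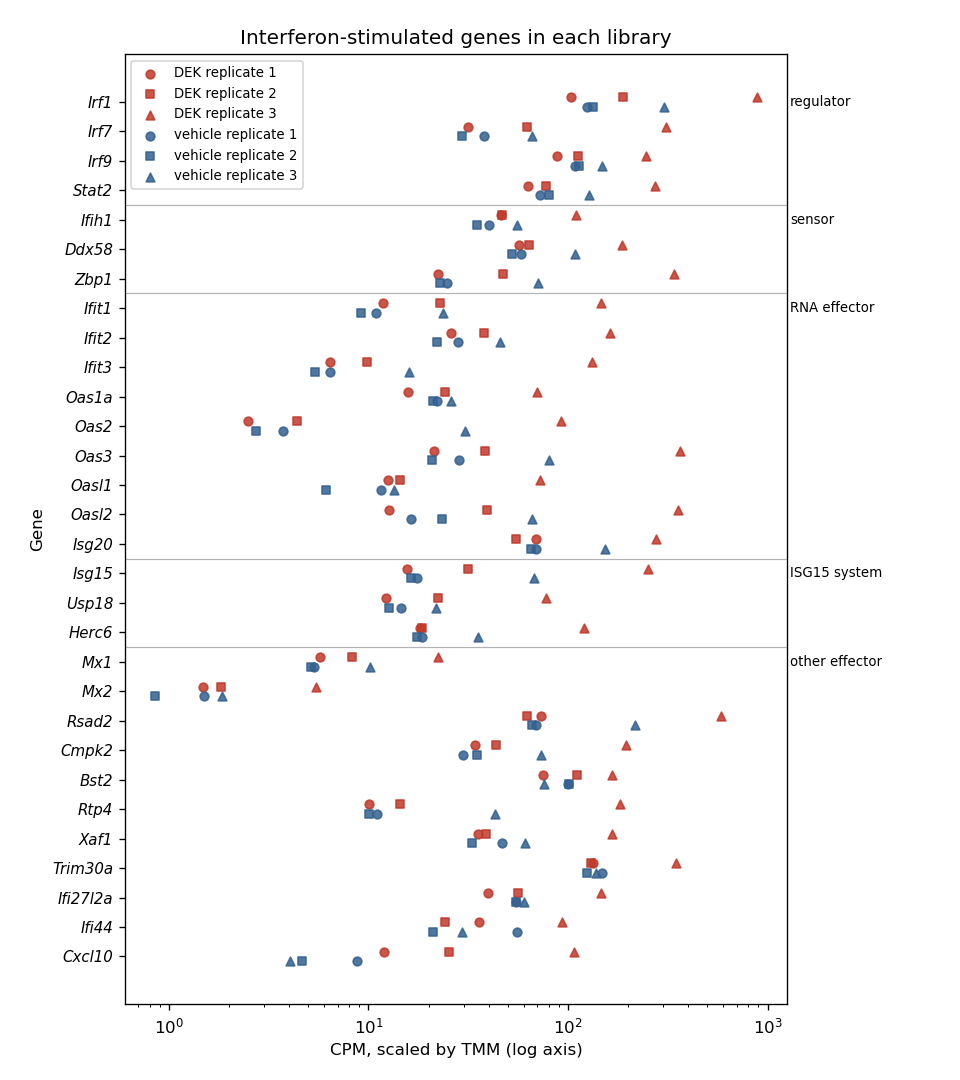
Level of each of the 30 genes (rows, grouped by role) in CPM on a log axis, with DEK libraries in red above vehicle libraries in blue and the marker shape giving the replicate number. The red triangle, DEK replicate 3, lies farthest to the right in every row, and the 2 groups are separate for Cxcl10 alone.

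No gene of the set passed the test between the groups. In edgeR's quasi-likelihood test without pairing, 0 of the 30 had an adjusted p under 0.05 (adjusted p = 0.99994 for each), as 0% of all 13803 genes did. At an unadjusted p under 0.05 there were 360 of all genes (2.61%) and 1 of the 30, Cxcl10, which was higher with DEK like 1.49% of all genes, while 0 of the 30 and 1.12% of all genes were lower. The fitted log2 fold change (DEK minus vehicle) was above 0 for all 30, against 50.5% of all genes, with a median of 1.07 against 0.00 for all genes. Without DEK replicate 3, however, it was above 0 for only 10 of the 30, against 46.3% of all genes, and the median was -0.24. That fit keeps vehicle replicate 3, the highest vehicle library for 26 of the 30, which lowers these values. Without both libraries numbered 3 and without pairing, the log2 fold change was above 0 for 21 of the 30 and below 0 for 9. With the replicate number as a block, edgeR called 177 of all genes (1.28%, of which 0.869% higher and 0.413% lower with DEK) and again 0 of the 30. At an unadjusted p under 0.05 it had 4 of the 30 higher with DEK (Ifih1, Ddx58, Mx1 and Mx2), against 6.03% of all genes. Adjusted p in that fit ran from 0.175 to 0.890 over the set, and the median log2 fold change was 0.65. DESeq2 without pairing called 56 of all genes, 0.254% higher with DEK, and 1 of the 30, Cxcl10.

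The difference between the groups was not the same in size or direction in each replicate number. In number 1, 7 of the 30 genes were higher with DEK (46.6% of all genes were), with a median log2 difference of -0.14 and a range of -0.63 to 0.45. In number 2, 26 were higher (51.1% of all genes), with a median of 0.51 and a range of -0.26 to 2.43. In number 3, 30 were higher (49.5% of all genes), with a median of 1.57 and a range of 0.73 to 4.70. A log2 difference above 1 was reached by 0, 6 and 26 of the 30 in numbers 1, 2 and 3, and by 1.14%, 2.64% and 3.51% of all genes. Genes above 0 in all 3 numbers were 6 of 30, against 16.3% of all genes. Each number holds 1 library per group, and the difference between the numbers was not tested.

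**Figure D2:**
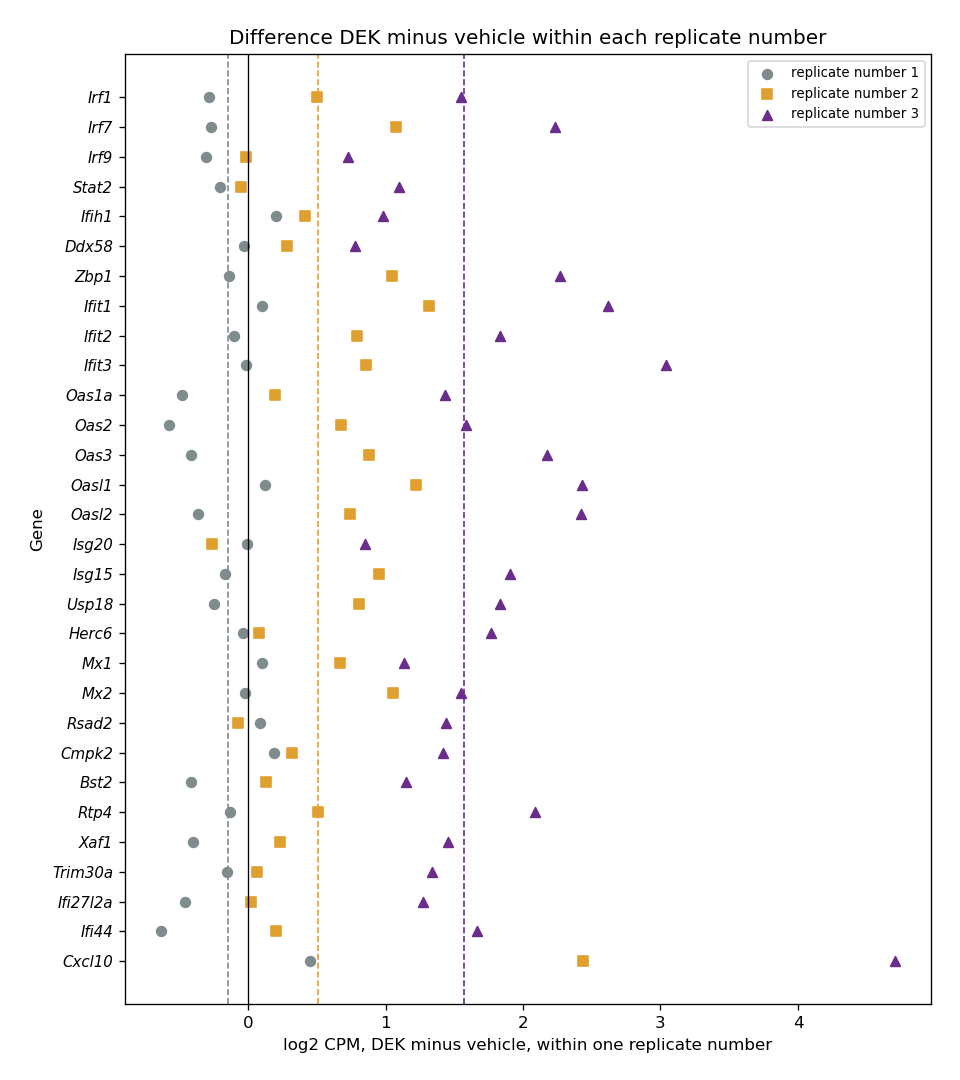
Log2 CPM with DEK minus vehicle for each gene (rows) within replicate numbers 1, 2 and 3 (grey, yellow and purple), with dashed lines at the medians of -0.14, 0.51 and 1.57. The purple points lie right of 0 in every row, and most grey points lie left of it.

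Among the regulators, which carry the signal to the promoters, Irf7 had the highest fitted fold change. Irf7 (chromosome 7, 141263183 to 141266424, minus strand, mm10) amplifies interferon production. It stood at 31.5, 62.2 and 311 CPM in DEK replicates 1, 2 and 3, against 38.1, 29.5 and 66.3 CPM in vehicle replicates 1, 2 and 3. The groups overlapped, with DEK replicate 1 below vehicle replicates 1 and 3. Its log2 fold change was 1.597 ± 0.86 (SE), 1.03 with the replicate block and 0.06 without DEK replicate 3.

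Irf1 (chromosome 11, 53770014 to 53778374, plus strand), a factor that answers interferon gamma strongly, stood at 103, 189 and 886 CPM with DEK, against 125, 133 and 303 CPM with vehicle. DEK replicate 1 was the lowest of the 6 libraries. The log2 fold change was 1.07 ± 0.84 (SE). Stat2 (chromosome 10, 128270576 to 128292849, plus strand), a subunit of the complex that binds the ISRE, stood at 62.8, 77.3 and 273 CPM with DEK, against 72.5, 80.1 and 127 CPM with vehicle. Irf9 (chromosome 14, 55603985 to 55610030, plus strand), the DNA-binding subunit of the complex, stood at 87.9, 112 and 246 CPM with DEK, against 109, 113 and 149 CPM with vehicle. For both, each DEK library of numbers 1 and 2 lay below its vehicle library of the same number. Their log2 fold changes were 0.56 ± 0.60 and 0.27 ± 0.40 (SE), and that of Irf9 was the lowest of the 30. Leaving out DEK replicate 3 gave -0.37 for Irf1, -0.42 for Stat2 and -0.31 for Irf9.

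The sensors detect nucleic acid in the cytoplasm. Ifih1, which encodes the long double-stranded RNA sensor MDA5, stood at 46.3, 46.4 and 110 CPM with DEK, against 40.3, 34.9 and 55.6 CPM with vehicle, and was higher with DEK in 3 of 3 numbers. It had the smallest adjusted p of the set with the replicate block, at 0.175 by edgeR (log2 fold change 0.53 ± 0.15, SE), and DESeq2 with the block, run after the data were seen, called it (adjusted p = 0.0360), as it did 1.7% of all genes higher with DEK. Ddx58, which encodes the RNA sensor RIG-I, stood at 56.8, 63.8 and 187 CPM with DEK, against 58.0, 52.4 and 109 CPM with vehicle. Zbp1, whose product binds left-handed nucleic acid and can trigger cell death, stood at 22.4, 47.4 and 339 CPM with DEK, against 24.6, 22.9 and 70.4 CPM with vehicle. Zbp1 thus spread far more than the other sensors: DEK replicate 3 exceeded vehicle replicate 3 by 4.81-fold, against 1.97-fold for Ifih1 and 1.72-fold for Ddx58.

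The 9 genes whose products bind or degrade RNA had the highest median of the role groups, a log2 fold change of 1.68. Ifit1 (chromosome 19, 34640889 to 34650009, plus strand), which binds the 5′ end of viral RNA, stood at 11.8, 22.8 and 146 CPM with DEK, against 10.95, 9.13 and 23.7 CPM with vehicle. It was higher with DEK in 3 of 3 numbers, by 1.07-fold, 2.49-fold and 6.13-fold, although the groups overlapped. Its log2 fold change was 2.04 ± 0.99 (SE), 1.38 with the replicate block and 0.24 without DEK replicate 3. Ifit3 (chromosome 19, 34583529 to 34588982, plus strand), a partner of Ifit1, stood at 6.39, 9.80 and 131 CPM with DEK, against 6.45, 5.38 and 16.0 CPM with vehicle. Its difference of 8.22-fold in number 3 was the second largest of the 30, while number 1 gave 0.990-fold. Both genes have close copies, Ifit1bl1 and Ifit3b, so their counts are uncertain.

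Oasl1 (chromosome 5, 114923240 to 114937911, plus strand), which in mouse restrains the translation of Irf7, stood at 12.5, 14.3 and 72.4 CPM with DEK, against 11.5, 6.10 and 13.4 CPM with vehicle. It was higher with DEK in 3 of 3 numbers, and only DEK replicate 1 kept the groups from being separate. Its log2 fold change was 1.68 ± 0.76 (SE), and 0.37 without DEK replicate 3. Oas1a, Oas2 and Oas3, which make the oligoadenylates that activate RNase L, and the related Oasl2 were each lower with DEK in number 1 and higher in numbers 2 and 3. Oas2 differed most between libraries, with 2.48, 4.38 and 92.0 CPM with DEK, against 3.71, 2.73 and 30.6 CPM with vehicle. Oas1a has close copies in its cluster, and its count is uncertain. Ifit2 stood at 26.1, 38.0 and 163 CPM with DEK, against 28.0, 22.0 and 45.6 CPM with vehicle.

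Isg20 (chromosome 7, 78913424 to 78920396, plus strand), an exonuclease that degrades viral RNA, had the lowest fold change of this role. It stood at 68.8, 54.7 and 276 CPM with DEK, against 69.2, 65.5 and 154 CPM with vehicle, so that DEK replicate 2 was the lowest library. Its log2 fold change was 0.47 ± 0.70 (SE), or -0.64 without DEK replicate 3.

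Isg15 encodes a ubiquitin-like protein that is attached to other proteins; Herc6 attaches it in mouse and Usp18 removes it and also dampens the interferon receptor. Isg15 (chromosome 4, 156199424 to 156200818, minus strand) stood at 15.7, 31.7 and 252 CPM with DEK, against 17.5, 16.3 and 67.2 CPM with vehicle. Per length it was the second most abundant of the 30 over all 6 libraries, at a mean of 88.2 RPKM, and in DEK replicate 3 it was the most abundant, at 333 RPKM. Its log2 fold change was 1.57 ± 1.14 (SE). Usp18 stood at 12.3, 22.3 and 77.6 CPM with DEK, against 14.6, 12.7 and 21.7 CPM with vehicle. Herc6 stood at 18.1, 18.5 and 121 CPM with DEK, against 18.5, 17.4 and 35.5 CPM with vehicle. In numbers 1 and 2 the levels of Herc6 thus lay within 17.4 to 18.5 CPM in both groups.

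Bst2 (chromosome 8, 71534262 to 71537437, minus strand) encodes tetherin, which holds virus particles at the cell surface and is abundant on plasmacytoid dendritic cells. It was the most abundant of the set per length, at a mean of 137 RPKM over the 6 libraries. It stood at 75.3, 111 and 167 CPM with DEK, against 100.3, 101 and 75.4 CPM with vehicle. Vehicle replicate 3 was the lowest of the vehicle libraries, unlike for most of the set. The markers of plasmacytoid dendritic cells took 0.0426%, 0.0408% and 0.0193% of counts in DEK replicates 1 to 3, against 0.0433%, 0.0487% and 0.0195% in vehicle replicates 1 to 3, and their part in the level of Bst2 was not tested. The log2 fold change of Bst2 was 0.35 ± 0.29 (SE).

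Ifi27l2a (chromosome 12, 103433873 to 103443680, minus strand), a small interferon-induced protein gene, stood at 39.8, 55.9 and 146 CPM with DEK, against 54.6, 55.0 and 60.2 CPM with vehicle. Outside DEK replicate 3 it stayed within 39.8 to 60.2 CPM. Its exons overlap Ifi27 on the opposite strand and it has a close copy, so its count is uncertain. Trim30a, which in mouse restrains Toll-like receptor signalling, showed the same picture, with 134, 131 and 349 CPM with DEK, against 148, 125 and 138 CPM with vehicle. It too has close copies.

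Rsad2 encodes viperin, which makes a chain-terminating nucleotide, and Cmpk2, its neighbour on chromosome 12, a nucleotide kinase. Rsad2 stood at 73.5, 62.4 and 587 CPM with DEK, against 69.2, 65.7 and 217 CPM with vehicle, and Cmpk2 at 34.2, 43.4 and 196 CPM with DEK, against 29.9, 34.8 and 73.0 CPM with vehicle. In numbers 1 and 2 both lay between 0.950-fold and 1.25-fold of vehicle, and in number 3 they were 2.71-fold and 2.68-fold higher with DEK. Rtp4, a transmembrane protein gene, stood at 10.0, 14.3 and 183 CPM with DEK, against 10.97, 10.1 and 43.0 CPM with vehicle. Xaf1, a gene that promotes cell death, stood at 35.3, 39.0 and 166 CPM with DEK, against 46.7, 33.2 and 60.6 CPM with vehicle. Ifi44 was the member lowest in DEK relative to vehicle in number 1, at 0.646-fold, and 3.16-fold in number 3. The dynamin-like GTPase genes Mx1 and Mx2, which RefSeq annotates as transcribed pseudogenes in C57BL/6J, were the least abundant per length, at means of 3.20 and 0.892 RPKM. Mx1 stood at 5.74, 8.24 and 22.4 CPM with DEK, against 5.35, 5.18 and 10.2 CPM with vehicle, higher with DEK in 3 of 3 numbers.

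Cxcl10 (chromosome 5, 92346639 to 92348889, minus strand) encodes a chemokine that draws activated T cells, and it was the exception in the set. It stood at 11.99, 25.2 and 107 CPM in DEK replicates 1, 2 and 3, against 8.76, 4.63 and 4.05 CPM in vehicle replicates 1, 2 and 3. The groups did not overlap, as for 3.78% of all genes tested in this direction, and no other of the 30 did this, nor did any lie wholly below vehicle, as 3.41% of all genes did. Vehicle replicate 3 was the lowest of the 6 libraries, whereas for 24 of the 30 it was second highest. The differences were 1.37-fold, 5.40-fold and 26.0-fold in numbers 1, 2 and 3. The log2 fold change was 3.04 ± 0.87 (SE), an 8.22-fold difference (edgeR, unadjusted p = 0.0121, adjusted p = 0.99994), and 1.67 without DEK replicate 3. DESeq2 called it (adjusted p = 0.00488), whereas limma-voom (adjusted p = 0.99994) and edgeR with the replicate block (adjusted p = 0.640) did not. Its adjusted p over the alternatives ran from 0.00488 to 1.00.

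Without both libraries numbered 3, the test with the replicate block called 3 of the 30, all higher with DEK. These were Ifit1 (log2 fold change 0.72, adjusted p = 0.00163), Oasl1 (0.66, adjusted p = 0.00799) and Zbp1 (0.46, adjusted p = 0.0446), all by edgeR, where 641 of all genes were called, 2.37% higher with DEK. This fit has 1 residual degree of freedom. Ifit1 and Oasl1 were higher with DEK in both numbers, whereas Zbp1 had log2 differences of -0.14 in number 1 and 1.05 in number 2, so its call rests on number 2. Without pairing, 0 of the 30 were called on those 4 libraries. In CPM, both DEK libraries of numbers 1 and 2 lay above both vehicle libraries of these numbers for Ifih1, Ifit1, Oasl1, Mx1 and Cxcl10, and below both for 0 of the 30. That was 5 of 30, against 20.6% of all genes above and 21.1% below. The median log2 fold change over the 4 libraries was 0.20 with the block.

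**Figure D3:**
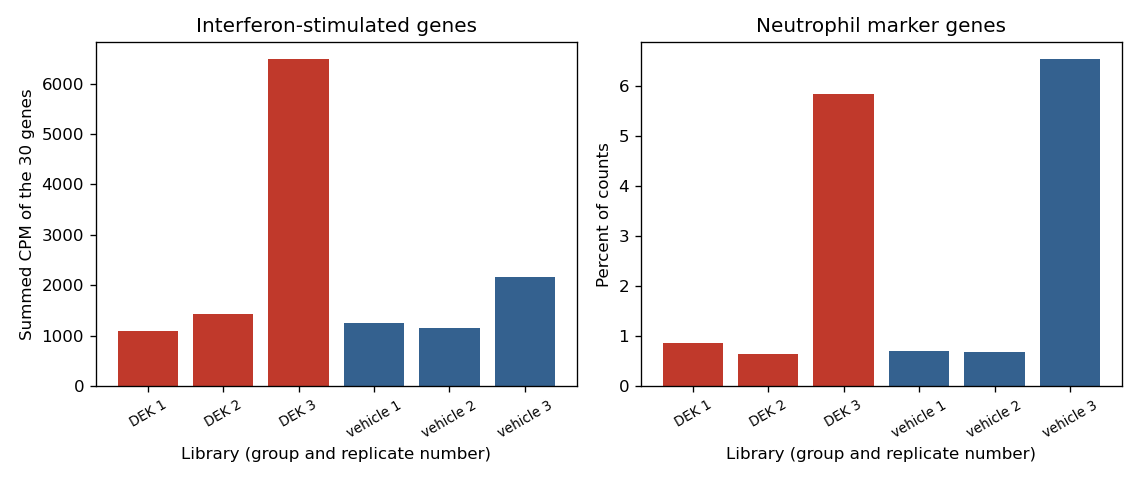
Summed CPM of the 30 genes (left) and percent of counts in neutrophil marker genes (right) in each library, DEK libraries in red and vehicle libraries in blue. The neutrophil share is high in both libraries numbered 3, at 5.84% with DEK and 6.55% with vehicle, whereas the summed level of the 30 genes is 6492 CPM in DEK replicate 3 and 2172 CPM in vehicle replicate 3.

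The libraries numbered 3 differed from the others of their group in the same direction as the neutrophil markers. The log2 level in number 3 minus the mean of numbers 1 and 2 had a median of 2.36 over the 30 genes with DEK and 0.96 with vehicle, against -0.02 and -0.01 for all genes. With DEK it was above 0 for 30 genes, from 0.87 for Bst2 to 4.78 for Oas2. With vehicle it was above 0 for 27, from -0.65 for Cxcl10 to 3.25 for Oas2, with Bst2 and Ifi44 as the other two below 0. Between DEK replicate 3 and vehicle replicate 3 the summed level differed by 2.99-fold, while the neutrophil share was 5.84% with DEK and 6.55% with vehicle. The part of neutrophils in the level of the set was not tested.

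Of the interferon genes themselves, 10 were listed, which are not all that mouse has, and 0 of the 10 passed the filter on low counts. The transcripts of Ifna1, Ifna2, Ifna4, Ifna5, Ifne, Ifnl2 and Ifnl3 had 0 counts in each library. Ifnb1, the gene of interferon beta, had 1, 1 and 4 counts in DEK replicates 1 to 3, against 1, 1 and 0 in vehicle replicates 1 to 3, and Ifnk had 0, 7 and 1 with DEK, against 0, 0 and 0 with vehicle. Ifng, the gene of interferon gamma, which T and NK cells make, had 16, 6 and 83 counts with DEK, against 3, 6 and 5 with vehicle. DEK replicate 3 was thus the highest library for Ifng as well. The T and NK cell markers took 0.0129 to 0.0176% of counts with DEK and 0.0170 to 0.0181% with vehicle, mostly from Nkg7, a granule protein gene that other cells of the marrow can express. Its members did not move together in DEK replicate 3. Nkg7 was lowest there, at 110 CPM, Ncr1, an NK cell receptor gene, was highest, at 2.62 CPM, and Cd3d, a T cell receptor subunit gene, was at 11.2 CPM in both DEK replicate 3 and vehicle replicate 3. Interferon transcripts at this abundance are near the limit of what these depths detect.

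The receptor and kinase genes lay close to 0, with 0 of 9 called in either fit and a median log2 fold change of 0.10. The receptor genes Ifnar1 and Ifnar2 had log2 fold changes of 0.17 ± 0.15 and -0.06 ± 0.16, Ifngr1 and Ifngr2 of -0.32 ± 0.19 and 0.23 ± 0.13, and Ifnlr1 and Il10rb of 0.16 ± 1.45 and -0.10 ± 0.13 (SE). The kinase genes Jak1, Jak2 and Tyk2 were at -0.01 ± 0.18, 0.10 ± 0.12 and 0.25 ± 0.14 (SE).

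The other interferon-stimulated genes followed the 30. Of 40, 0 were called in either fit, and the medians within numbers 1, 2 and 3 were -0.14, 0.21 and 1.02. Ly6e, a membrane protein gene, had the smallest unadjusted p of this list in edgeR's fit, with a log2 fold change of 0.49 ± 0.14 (SE) and differences of 0.25, 0.56 and 0.63 in numbers 1 to 3. Phf11d followed with 1.41 ± 0.50 (SE). Neither passed after adjustment (edgeR adjusted p = 0.99994 without the block; 0.0726 for Ly6e and 0.0973 for Phf11d with it). Gbp2, a guanylate-binding protein gene chosen after its values were seen, had 2069, 4681 and 70266 counts with DEK, against 2533, 2686 and 7376 with vehicle.

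Of 14 sensors and adaptors, 1 was called higher with DEK with the replicate block, against 0.869% of all genes. It was Myd88, the adaptor of Toll-like and interleukin 1 receptors (log2 fold change 0.44 ± 0.18 unpaired, SE; edgeR adjusted p = 0.0418 with the block). Ikbke, a kinase that activates IRF factors, had 0.71 ± 0.25 (SE; edgeR unadjusted p = 0.0248 without the block, adjusted p = 0.178 with it). Of 6 negative regulators 0 were called, and the median log2 fold change was 0.21. Socs1, a feedback inhibitor of the kinases, stood at 7.82, 13.2 and 57.8 CPM with DEK, against 6.04, 7.13 and 12.2 CPM with vehicle, and Socs3, a relative of Socs1, at 30.4, 52.6 and 122 CPM with DEK, against 23.4, 21.7 and 55.2 CPM with vehicle. The other 4 had log2 fold changes of -0.02 for Pias1, 0.07 for Ptpn2, 0.18 for Ptpn6 and 0.23 for Irf2.

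The genes driven by NF-kB, the factor of inflammatory signalling, had another pattern across the numbers. Of 6, 3 were called higher with DEK with the block, against 0.869% of all genes, and 0 without it. The 6 were chosen with earlier results of these data known, so this share does not test the list. The medians of the 6 were 0.68, 1.37 and 1.05 in numbers 1, 2 and 3. Nfkbia, the gene of an NF-kB inhibitor, had log2 differences of 0.71, 1.07 and 0.67 (edgeR adjusted p = 0.00356 with the block), and Tnfaip3, the gene of the inhibitor A20, had 0.45, 0.98 and 0.83 (adjusted p = 0.00827). The third was Il1b, the gene of interleukin 1 beta, with 1.54, 2.39 and 1.99 (adjusted p = 0.00293). Of those not called, the cytokine gene Tnf had 0.83, 2.14 and 1.43, the chemokine gene Cxcl2 had 0.65, 1.68 and 1.27, and the chemokine gene Ccl3 had -0.18, -0.40 and 0.02. For the 30 interferon-stimulated genes the corresponding medians were -0.14, 0.51 and 1.57. The difference between the lists was not tested.

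**Figure D4:**
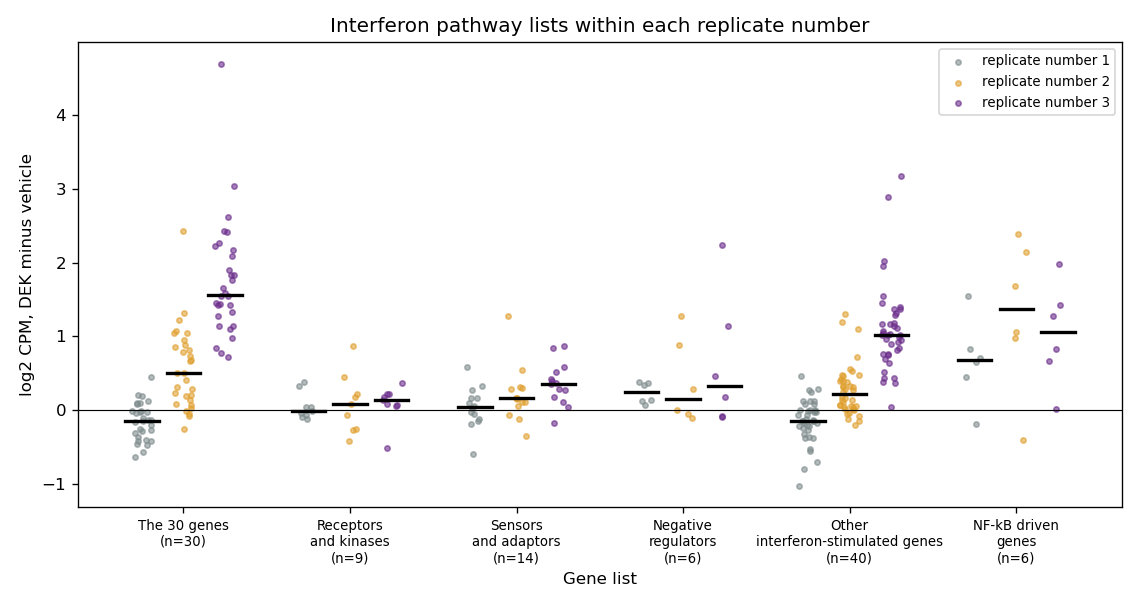
Log2 CPM with DEK minus vehicle for each tested gene (points) of the 30 interferon-stimulated genes and of 5 further lists, within replicate numbers 1, 2 and 3 (grey, yellow and purple), with black bars at the medians. The 30 genes have medians of -0.14, 0.51 and 1.57, the receptors and kinases lie near 0, and the genes driven by NF-kB have medians of 0.68, 1.37 and 1.05.

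Beside the promoter letters shown above, the differences were as follows. The 12 genes with a core had median differences of -0.09, 0.35 and 1.43 in numbers 1, 2 and 3. The 11 genes with a window and no core had -0.27, 0.32 and 1.66, and the 7 genes with no window had -0.14, 0.67 and 1.59. Single genes of both kinds spread widely in number 3. Bst2 with its 2 cores and Isg15 with its 3 differed by 1.15 and 1.90, and Ifit3 with 2 and Cxcl10 with 1 by 3.04 and 4.70. Of the genes with a window and no core, Irf7 differed by 2.23 and Irf9 by 0.73.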

How the data were processed

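Polyadenylated RNA of lineage-depleted Dek -/- marrow was sequenced in 3 DEK and 3 vehicle libraries. The deposited values are read counts per gene; per the file headers they were made with featureCounts 1.6.1 over exons on mm10, without a strand or overlap option, so reads in exons of more than 1 gene were left out and antisense reads were not told apart. Per the submitters' processing notes, Trim Galore, STAR, HTSeq and edgeR were used. Gene lengths in the deposited table gave RPKM.

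The counts were scaled by TMM and tested in R 4.3.3 with edgeR 4.0.16 (quasi-likelihood, robust, two-sided, Benjamini-Hochberg over 13803 genes kept by filterByExpr, threshold 0.05), without a block. DESeq2 1.42.0 and limma 3.58.1 (voom) were alternatives. The edgeR steps were tested on simulated data without a replicate effect or an outlying library. That does not check them under the spread of these libraries. The SE of a log2 fold change is its size over the square root of the F statistic. Differences within a number are log2 CPM with a prior count of 2. Deviations from group means correlated by 0.552, 0.558 and 0.799 for equal numbers 1, 2 and 3, each over 0.1. The numbers were therefore taken as pairs, and the replicate block is given where it changes a count of calls. Unequal numbers 1 and 2 correlated by 0.523 and 0.408 too, so these values do not settle how numbers 1 and 2 are matched. The 30 genes and the other lists were chosen with earlier results of these data known, and 1 gene of a list is not reported here. Per-library values are given for the 4 regulators, for the effectors with the 3 largest and 3 smallest paired fold changes, the 3 smallest p and the 3 highest RPKM, and for further members to show the spread.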

Additional observations from a re-analysis of the deposited data

How the results depend on the processing

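Leaving out 1 library or both libraries of 1 number at a time, the 30 genes had 0 to 3 calls, their median log2 fold change ran from -0.24 to 1.52, and 0 to 641 of all genes were called. The lowest median came without DEK replicate 3. Without both libraries of number 1, the block called 181 of all genes and 1 of the 30, higher with DEK. Without both of number 3, 641 of all genes were called with the block and 168 without it, with medians of 0.20 and 0.24. The replicate block called 177 of all genes and 0 of the 30. DESeq2 called 56 and 1, and, both added after the data were seen, the block with DESeq2 called 350 and 1 and the block with limma-voom 171 and 0. RLE scaling, no filter on low counts and limma-voom without the block called 0 of the 30 and kept every one above 0, with a median of 0.64 in limma-voom, and scaling by plain totals moved the summed log2 difference only to 0.55 from 0.57.

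Over the same omissions the log2 fold change of 21 of the 30 genes took both signs, and for most of them the lowest value came without DEK replicate 3. Among regulators and sensors it ran from -0.37 to 1.61 for Irf1, -0.31 to 0.53 for Irf9, -0.42 to 0.91 for Stat2, -0.28 to 0.90 for Ddx58 and -0.18 to 2.52 for Zbp1. Among genes acting on RNA it ran from -0.20 to 3.06 for Ifit3, -0.21 to 1.03 for Oas1a, -1.85 to 3.35 for Oas2, -0.54 to 2.52 for Oas3, -0.46 to 2.77 for Oasl2 and -0.64 to 0.99 for Isg20. Among the rest it ran from -0.52 to 2.56 for Isg15, -0.39 to 1.55 for Herc6, -0.79 to 1.84 for Rsad2, -0.25 to 1.49 for Cmpk2, -0.14 to 0.64 for Bst2, -0.82 to 2.71 for Rtp4, -0.34 to 1.13 for Xaf1, -0.056 to 0.81 for Trim30a, -0.25 to 0.83 for Ifi27l2a and -0.35 to 1.02 for Ifi44. Of the other 9, Irf7, Ifih1, Ifit1, Ifit2, Oasl1, Usp18, Mx1, Mx2 and Cxcl10, the values without DEK replicate 3 were 0.06, 0.08, 0.24, 0.0016, 0.37, 0.08, 0.02, 0.23 and 1.67. The cause was not tested. Without both libraries numbered 3, the same 9 genes (Irf9, Stat2, Oas1a, Isg20, Bst2, Xaf1, Trim30a, Ifi27l2a and Ifi44) were below 0 in both fits, in that order at -0.16, -0.13, -0.14, -0.13, -0.14, -0.087, -0.043, -0.22 and -0.22 with the replicate block and at -0.15, -0.12, -0.11, -0.13, -0.12, -0.11, -0.048, -0.20 and -0.35 without it. The interferon genes had at most 83 counts in a library, and whether depth or another limit set this was not tested. For the 30 genes the spread between libraries is the limit.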
